A study of Mus musculus with 16 samples.

Results

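The steroid-metabolizing dehydrogenases and reductases of the liver were followed as a group of 10 named genes: Hsd3b2, Hsd3b3, Hsd3b5, Akr1c6, Akr1c14, Akr1c19, Akr1c20, Hsd17b2, Hsd17b6 and Srd5a1. Each gene was represented by the probe set (the group of array probes summarised as 1 value) that carries its symbol alone, and where several exist the brightest one was taken, selected on its average level across the 16 arrays. Of the 10 genes, 9 were measured, each by a single probe set, out of 30142 genes tested. Srd5a1, the type 1 steroid 5α-reductase, had no listed probe set, so its level is not analysed here and only its start window is used. Levels were used to pick probe sets, and the genes themselves were chosen by results of these data already known, so the comparisons of PHx with sham below describe the members and are not independent evidence that the group responds.

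The arrays came from mouse liver, 4 for each of 4 groups, all taken 12 h after surgery. The groups were sham-operated Ppara fl/fl, sham-operated Ppara△Hep, Ppara fl/fl after partial hepatectomy (PHx, the removal of part of the liver) and Ppara△Hep after PHx. PPARα, the product of Ppara, is a nuclear receptor that responds to fatty acids. The fl/fl mice carry the floxed alleles and stand for wild type, and in Ppara△Hep mice the gene is disrupted in hepatocytes. The labels name neither the driver of the deletion nor the age, sex or strain of the mice, and do not say that each array is a separate animal, so the p-values reflect only array-to-array spread, which may be technical. Arrays are numbered 1 to 4 in each group, and the numbers pair nothing across groups. Values are log2 levels made with RMA, so a difference of 1 is a 2-fold change, and a level is compared only with other levels of the same probe set.

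The liver takes steroid hormones from the blood and inactivates them by oxidation, reduction and conjugation. Enzymes of the Hsd3b family act on the 3-position of the steroid nucleus, oxidising 3β-hydroxysteroids to 3-ketosteroids, while the mouse Hsd3b5 product, found in male liver, works as a 3-ketosteroid reductase. Aldo-keto reductases of the Akr1c family reduce or oxidise at the 3-, 17- or 20-position, and the Hsd17b enzymes interconvert strong and weak androgens and oestrogens at the 17-position. Several of these genes follow the male pattern of growth hormone secretion in rodents.

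The Hsd3b genes on chromosome 3 are close copies of each other and lie side by side. Their order is Hsd3b4, Hsd3b5, Hsd3b2, Hsd3b3, Hsd3b6 and Hsd3b1 (RefSeq, GRCm38.p6), while Hsd3b7 lies on chromosome 7. The Akr1c genes form a second cluster of 8 on chromosome 13. The windows around the start sites of the 3 Hsd3b members are shown because they make this kinship visible and because the 3 genes moved together. Each window holds 250 bases before and 50 after the annotated start, from RefSeq (GRCm38.p6), on the minus strand and written 5′ to 3′, and capitals mark every run of at least 12 bases that is identical in another of the 3 windows. They are Hsd3b5 at chr3:98645485-98645784, Hsd3b2 at chr3:98724494-98724793 and the downstream of the 2 annotated starts of Hsd3b3 at chr3:98762361-98762660.
Hsd3b5: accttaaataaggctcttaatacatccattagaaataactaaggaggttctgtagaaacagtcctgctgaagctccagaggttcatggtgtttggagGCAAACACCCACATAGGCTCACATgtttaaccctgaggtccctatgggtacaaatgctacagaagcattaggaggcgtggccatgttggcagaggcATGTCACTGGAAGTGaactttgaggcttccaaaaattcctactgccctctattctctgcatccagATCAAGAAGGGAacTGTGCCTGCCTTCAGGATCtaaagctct
Hsd3b2: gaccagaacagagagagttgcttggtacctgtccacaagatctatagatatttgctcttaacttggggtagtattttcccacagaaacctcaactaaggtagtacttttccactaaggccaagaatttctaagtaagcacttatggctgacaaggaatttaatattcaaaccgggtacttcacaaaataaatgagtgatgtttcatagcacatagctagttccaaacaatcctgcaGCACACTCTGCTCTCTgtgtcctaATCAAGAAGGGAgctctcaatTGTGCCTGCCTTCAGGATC
Hsd3b3: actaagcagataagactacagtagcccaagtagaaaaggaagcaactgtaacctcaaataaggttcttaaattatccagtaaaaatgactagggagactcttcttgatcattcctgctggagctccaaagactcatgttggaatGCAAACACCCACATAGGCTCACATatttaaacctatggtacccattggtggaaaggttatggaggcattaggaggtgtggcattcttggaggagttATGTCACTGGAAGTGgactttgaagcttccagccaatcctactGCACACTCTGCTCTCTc

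The longest shared run was 24 bases between Hsd3b5 and Hsd3b3, 19 between Hsd3b5 and Hsd3b2 and 16 between Hsd3b2 and Hsd3b3. Between windows of different families among the members, the longest run in each of 35 pairs was 7 to 11 bases. Capitals cover 23.3% of the Hsd3b5 window, 15.7% of the Hsd3b2 window and 18.3% of the Hsd3b3 window. Probes for one copy can pick up transcripts of another, so the 3 Hsd3b values are uncertain in that respect. The Akr1c genes are also clustered relatives, and their probes were not checked for shared sequence either. The probe sets that carry the symbol of Hsd3b4 carry others too and were not used.

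After PHx the 3 Hsd3b genes and the 4 Akr1c genes stood lower in fl/fl livers, and both Hsd17b genes did not pass the test. In fl/fl livers 7 of the 9 measured members fell and 0 rose, against 20.8% of all genes lower in the same comparison (limma, adjusted p below 0.05 over 30142 genes). In Ppara△Hep livers 6 of 9 fell and 0 rose, against 17.5% of all genes lower. All 9 members have a mean level of at least 3 over the 16 arrays, and among the 13614 genes with such a mean 35.3% were lower in fl/fl and 34.2% in Ppara△Hep livers. The share of all genes that rose was 11.9% in fl/fl and 14.8% in Ppara△Hep livers. The median log2 change of the 9 was -1.39 in fl/fl and -1.24 in Ppara△Hep livers, where the medians over all genes were -0.04 and 0.01. In each genotype the PHx arrays lay wholly below the sham arrays for 6 of the 9, while that was so for 19.9% and 16.2% of all genes.

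Hsd3b5 had the widest gap between sham and PHx of the members. In sham fl/fl livers its level was 7.33, 8.68, 8.78 and 8.03 on arrays 1 to 4, and in PHx fl/fl livers 4.04, 3.17, 4.89 and 4.62. Sham Ppara△Hep arrays read 8.66, 8.34, 8.61 and 8.0, and PHx Ppara△Hep arrays 5.33, 4.37, 4.27 and 4.91. Every PHx array lay below every sham array, and the lowest sham value was that of fl/fl array 1. The fall was 4.02 ± 0.37 in fl/fl (SE, n = 4 per group; limma adjusted p = 1.07e-06), a 16.3-fold lower level, and 3.68 ± 0.37 in Ppara△Hep livers (adjusted p = 2.75e-06), 12.8-fold lower. Ordered by size of fall over all genes, Hsd3b5 ranked 2 in fl/fl and 3 in Ppara△Hep livers.

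Hsd3b3, a 3β-hydroxysteroid dehydrogenase of liver and kidney, read 6.60, 8.46, 8.16 and 7.95 in sham fl/fl and 4.0, 4.12, 5.28 and 5.34 in PHx fl/fl livers. In Ppara△Hep livers it read 8.15, 7.27, 8.03 and 7.63 after sham and 5.48, 5.39, 4.21 and 6.2 after PHx. The groups did not overlap in either genotype, and again sham fl/fl array 1 was the lowest sham value. The log2 change was -3.11 ± 0.46 in fl/fl (8.61-fold lower; adjusted p = 1.47e-04) and -2.45 ± 0.46 in Ppara△Hep livers (5.47-fold lower; adjusted p = 9.11e-04).

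Hsd3b2 encodes another member of the same enzyme family. Its levels were 4.28, 6.67, 6.31 and 6.01 in sham fl/fl, 2.75, 2.84, 3.12 and 3.34 in PHx fl/fl, 6.17, 5.36, 6.34 and 5.45 in sham Ppara△Hep and 3.51, 3.58, 2.66 and 3.24 in PHx Ppara△Hep livers. The change was -2.80 ± 0.40 in fl/fl (6.99-fold lower; adjusted p = 1.28e-04) and -2.58 ± 0.40 in Ppara△Hep livers (5.99-fold lower; adjusted p = 2.36e-04). Some of its PHx levels lay below 3, and the part of the background in the size of these changes was not tested. The groups did not overlap in either genotype, and sham fl/fl array 1 was the lowest sham array.

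**Figure D1:**
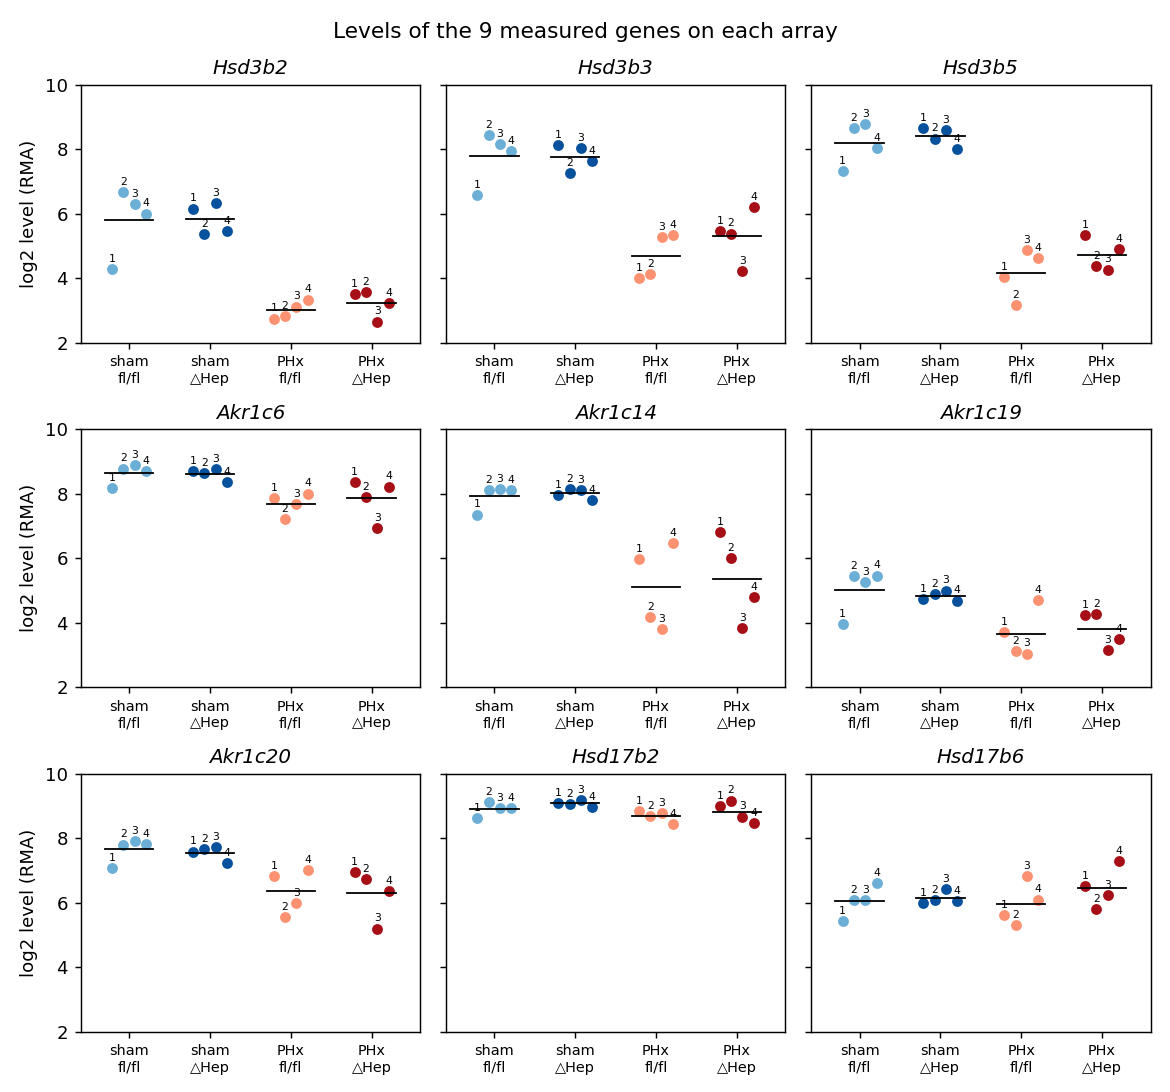
Log2 level of each measured gene on each array, with 1 panel per gene, points numbered by array and a line at the group mean (n = 4 arrays per group). For Hsd3b2, Hsd3b3, Hsd3b5, Akr1c14 and, narrowly, Akr1c20 all PHx arrays lie below all sham arrays. Hsd17b2 and Hsd17b6 overlap between the operations.

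Akr1c14, a 3α-hydroxysteroid dehydrogenase that reduces 3-ketosteroids, fell by as much as Hsd3b2 but spread widely after PHx. Sham fl/fl arrays read 7.36, 8.11, 8.15 and 8.12, and sham Ppara△Hep arrays 7.98, 8.15, 8.13 and 7.82. PHx fl/fl arrays read 5.97, 4.17, 3.81 and 6.48, and PHx Ppara△Hep arrays 6.82, 6.00, 3.83 and 4.79. The SD rose from 0.39 and 0.15 in the sham groups to 1.32 in both PHx groups, with fl/fl arrays 2 and 3 and Ppara△Hep arrays 3 and 4 low. The change was -2.83 ± 0.61 in fl/fl (7.11-fold lower; adjusted p = 0.00282) and -2.66 ± 0.61 in Ppara△Hep livers (6.32-fold lower; adjusted p = 0.00387). That SE pools 1 spread over the 4 groups.

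Akr1c20, a further hydroxysteroid dehydrogenase of the cluster, read 7.08, 7.81, 7.93 and 7.81 in sham fl/fl and 6.84, 5.56, 6.00 and 7.03 in PHx fl/fl livers. Ppara△Hep livers read 7.59, 7.66, 7.73 and 7.24 after sham and 6.96, 6.75, 5.20 and 6.38 after PHx. The groups were apart, in fl/fl livers only by 7.03 against 7.08. Its change was -1.30 ± 0.36 in fl/fl (adjusted p = 0.0133) and -1.24 ± 0.36 in Ppara△Hep livers (adjusted p = 0.0170).

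Akr1c6 encodes the type 5 17β-hydroxysteroid dehydrogenase, which makes testosterone from androstenedione. It read 8.18, 8.79, 8.89 and 8.71 in sham fl/fl, 7.87, 7.23, 7.68 and 8.01 in PHx fl/fl, 8.71, 8.64, 8.76 and 8.36 in sham Ppara△Hep and 8.37, 7.91, 6.95 and 8.23 in PHx Ppara△Hep livers. In fl/fl livers the groups were apart and the change was -0.94 ± 0.26 (1.92-fold lower; adjusted p = 0.0125). In Ppara△Hep livers the groups overlapped only by 8.37 against 8.36, and the change of -0.75 ± 0.26 passed narrowly (adjusted p = 0.0374). That call was lost without any one of sham Ppara△Hep arrays 1, 2 and 3 or PHx Ppara△Hep arrays 2 and 3, with a change of -0.45 (adjusted p = 0.0983) without the last of these and of -0.77 to -0.71 without each of the other 4. It was also lost after cyclic loess scaling at -0.57 (adjusted p = 0.121) and in a fit of the 2 groups alone at -0.75 (adjusted p = 0.0756).

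Akr1c19, an aldo-keto reductase of the same cluster, read 3.95, 5.46, 5.25 and 5.47 in sham fl/fl and 3.70, 3.11, 3.05 and 4.71 in PHx fl/fl livers, with PHx array 4 above sham array 1. It fell by 1.39 ± 0.38 there (adjusted p = 0.0126). In Ppara△Hep livers it read 4.74, 4.91, 5.0 and 4.69 after sham and 4.24, 4.28, 3.16 and 3.51 after PHx, with no overlap, yet its change of -1.04 ± 0.38 did not pass (adjusted p = 0.0508). It passed there without sham fl/fl array 1 (adjusted p = 0.0239), and also without PHx fl/fl array 3 or 4 or PHx Ppara△Hep array 1 or 2 (0.0237 to 0.0463). Without any one of these fl/fl arrays the change stayed at -1.04, because they enter the spread and not the 2 means compared. Akr1c19 passed too with array medians subtracted (adjusted p = 0.0249), among genes with a mean of at least 3 (0.0404), with trended and robust moderation (0.0469) and in a fit of the 2 groups alone (0.0138).

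The Hsd17b genes did not pass in either genotype. Hsd17b2, which oxidises oestradiol to oestrone and testosterone to androstenedione, read 8.63, 9.13, 8.94 and 8.93 in sham fl/fl and 8.85, 8.69, 8.80 and 8.43 in PHx fl/fl livers. Ppara△Hep livers read 9.11, 9.06, 9.18 and 8.99 after sham and 9.01, 9.17, 8.68 and 8.47 after PHx, and the operations overlapped in both genotypes. Its change was -0.21 ± 0.14 in fl/fl (95% confidence interval -0.51 to 0.08; adjusted p = 0.259) and -0.25 ± 0.14 in Ppara△Hep livers (-0.55 to 0.05; adjusted p = 0.188). With array medians subtracted the latter was -0.38 and passed (adjusted p = 0.0486). Hsd17b6, which can oxidise 3α-androstanediol back to dihydrotestosterone, read 5.43, 6.09, 6.09 and 6.61 in sham fl/fl and 5.61, 5.30, 6.82 and 6.10 in PHx fl/fl livers. Ppara△Hep livers read 6.01, 6.08, 6.42 and 6.05 after sham and 6.52, 5.80, 6.26 and 7.29 after PHx, again with overlap in both genotypes. Its change was -0.09 ± 0.33 in fl/fl (-0.81 to 0.62; adjusted p = 0.855) and 0.33 ± 0.33 in Ppara△Hep livers (-0.38 to 1.04; adjusted p = 0.490). All 4 intervals lie above -1, a 2-fold fall.

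**Figure D2:**
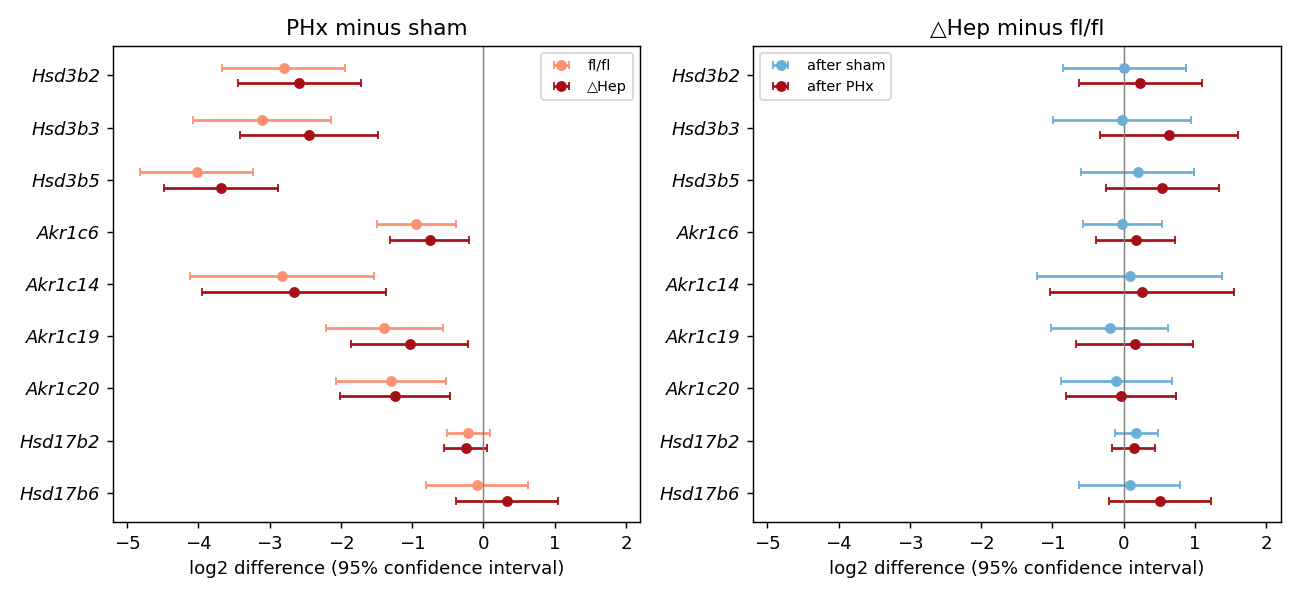
Log2 difference with its 95% confidence interval for each measured gene, PHx minus sham in each genotype on the left and Ppara△Hep minus fl/fl after each operation on the right (limma, 4 arrays per group). The left intervals of the Hsd3b and Akr1c genes lie below 0 and those of the Hsd17b genes cross it, while every interval on the right crosses 0.

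No member differed between the genotypes by the test. After sham 0 of 9 passed, against 0.0133% of all genes, with log2 differences from -0.20 for Akr1c19 to 0.20 for Hsd3b5. After PHx 0 of 9 passed, against 0.143% of all genes, with differences from -0.04 for Akr1c20 to 0.63 for Hsd3b3. Averaged over both operations 0 of 9 passed, against 0.219% of all genes. The difference between the genotypes' PHx changes passed for 0 of 9 members and for 0% of all genes (limma; 3400 of 30142 genes had an unadjusted p below 0.05), and ran from -0.04 for Hsd17b2 to 0.66 for Hsd3b3. In these 4 comparisons 0 members had an unadjusted limma p below 0.05, and with trended and robust variance moderation 0 passed as well. The PHx changes in the 2 genotypes are differences between separate arrays, but each shares its arrays with the genotype comparisons. Their SEs and p-values are not separate, because the fit pools the spread of each gene over the arrays of both genotypes. The counts of members that fell in the 2 genotypes are therefore not fully independent of each other.

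The intervals show what size of genotype difference these arrays leave possible. For Hsd3b5 the 95% confidence interval of Ppara△Hep minus fl/fl was -0.59 to 0.99 after sham and -0.25 to 1.33 after PHx. For Hsd3b3 after PHx it was -0.34 to 1.61, and for Akr1c14 after PHx -1.04 to 1.55. The narrowest was that of Hsd17b2, -0.12 to 0.48 after sham and -0.16 to 0.44 after PHx. Missing the threshold therefore does not show that the genotypes are alike for the genes with wide intervals.

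Within groups the members did not scatter independently. In sham fl/fl livers array 1 was the lowest of the 4 arrays for 9 of 9 members, while it was the lowest for 24.2% of all genes. It was also the lowest for 7 of 8 other Hsd3b and Akr1 family genes and 11 of 14 steroid conjugation genes, and for 7 of 10 Kupffer cell, 5 of 8 stellate cell and 5 of 9 endothelial markers, 5 of 7 steroid receptor and binding genes and 6 of 11 growth hormone signalling genes. It was the lowest for 5 of 16 male-biased liver genes, 2 of 14 female-biased genes and 0 of 9 hepatocyte markers. In PHx Ppara△Hep livers array 3 was the lowest for 7 of 9 members, and for 26.6% of all genes. Without sham fl/fl array 1 the change of Hsd3b2 in fl/fl livers was -3.32, that of Hsd3b3 -3.50, of Hsd3b5 -4.32 and of Akr1c19 -1.75, and 7 of 9 members still fell. Without PHx Ppara△Hep array 3, 5 of 9 fell in Ppara△Hep livers.

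In PHx Ppara△Hep livers all 3 Hsd3b and all 4 Akr1c genes were lowest on array 3. In PHx fl/fl livers array 4 was the highest for Hsd3b2, Hsd3b3 and the 4 Akr1c genes. All 4 Akr1c genes had arrays 2 and 3 below arrays 1 and 4. Hsd3b5 was highest on array 3 and lowest on array 2, and Hsd3b2 and Hsd3b3 were lowest on array 1. Hsd17b6 was also highest on array 3, at 6.82.

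**Figure D3:**
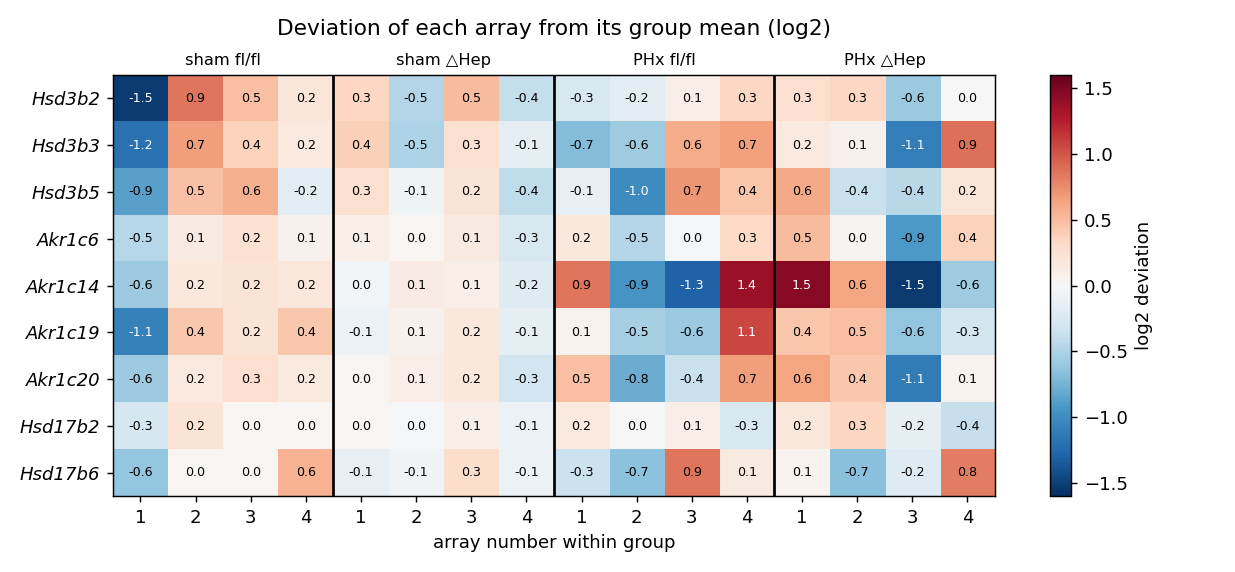
Deviation of each array from the mean of its group, in log2 units, for the 9 measured genes (rows) and 16 arrays (columns, 4 per group). The column of sham fl/fl array 1 is negative for all 9 genes, and the Akr1c14 row has the widest spread in the PHx groups.

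Likeness of pattern was measured as the root mean square difference between 2 genes' log2 profiles over the 16 arrays, each centred on its own mean, among 19045 other protein-coding genes. The gene nearest to Hsd3b2 was Hsd3b3, and the reverse held, at 0.39, and their probes were not checked for shared sequence. Nearest to Hsd3b5 were Derl3 (0.64), whose product helps clear misfolded proteins from the endoplasmic reticulum, Hsd3b3 (0.67), Hsd3b2 (0.72), Enpp3 (0.79), an ectonucleotide pyrophosphatase, and Keg1 (0.85). Adh4, an alcohol dehydrogenase that also acts on retinol, was nearest to Akr1c14 (0.24). Nearest to Akr1c6 was Hebp1 (0.19), which encodes a haem-binding protein. Akr1c20 had Nit2 (0.24), an amidase gene, and Akr1c19 had Deptor (0.28), an mTOR inhibitor gene. Hsd17b2 had Ost4 (0.13), a subunit gene of oligosaccharyltransferase, and Hsd17b6 had Car1 (0.31), a carbonic anhydrase gene. These are descriptions of likeness without a test.

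Of the other genes of the Hsd3b and Akr1 families, 7 of 8 measured fell in fl/fl and 7 of 8 in Ppara△Hep livers, and 0 rose. The median change of the 8 was -0.70 and -0.45. Hsd3b7, which acts in bile acid synthesis, went from 7.53 ± 0.16 to 6.30 ± 0.46 in fl/fl and from 7.57 ± 0.15 to 5.95 ± 0.58 in Ppara△Hep livers (SD, n = 4; changes -1.24 ± 0.25 and -1.61 ± 0.25, SE; limma adjusted p = 0.00169 and 1.89e-04). Akr1d1, the steroid 5β-reductase, fell by 1.31 ± 0.36 in fl/fl livers (adjusted p = 0.0119) and had -0.49 ± 0.36 in Ppara△Hep livers (adjusted p = 0.318). Akr1c12 and Akr1c13 fell by 0.80 ± 0.13 and 0.81 ± 0.13 in fl/fl and by 0.63 ± 0.13 and 0.53 ± 0.13 in Ppara△Hep livers. Hsd3b1, Hsd3b6, Akr1c18 and Akr1c21 are dim, with group means of at most 2.58, and supply 4 of the 7 calls in Ppara△Hep livers, with changes of -0.25, -0.40, -0.18 and -0.22. The median of the background probe sets itself was 1.25 ± 0.03 on sham and 1.01 ± 0.04 on PHx arrays (SD, n = 8), and its part in these changes was not tested.

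Of 13 measured genes of the 17β- and 11β-hydroxysteroid dehydrogenases, 5α-reductases and their cofactor supply, 5 fell and 0 rose in fl/fl, and 4 fell and 1 rose in Ppara△Hep livers. Hsd11b1, which regenerates active glucocorticoid, fell by 0.53 ± 0.09 in fl/fl and 0.48 ± 0.09 in Ppara△Hep livers, and H6pd, which supplies its NADPH, by 0.48 ± 0.09 and 0.64 ± 0.09. Of the 13, 2 were called lower in Ppara△Hep than in fl/fl livers after PHx. They were Hsd17b4, of peroxisomal fat oxidation, at -0.87 ± 0.13 (limma adjusted p = 0.0137), and Hsd17b7, of cholesterol synthesis, at -0.99 ± 0.16 (adjusted p = 0.0216). Both calls were lost in a fit of the 2 groups alone.

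The counts of these lists stand beside 20.8% of all genes lower in fl/fl and 17.5% in Ppara△Hep livers, and beside the higher shares among genes with a mean of at least 3, and a count near them is not a result about its list. Among the hydroxylases 5 of 10 fell in fl/fl and 3 of 10 in Ppara△Hep livers, led by Cyp39a1, an oxysterol 7α-hydroxylase, at -1.22 ± 0.20 and -0.88 ± 0.20. Of 14 conjugation genes 9 fell and 1 rose in fl/fl, and 5 fell and 2 rose in Ppara△Hep livers. The glucuronosyltransferase gene Ugt2b34 fell by 1.06 ± 0.15 and 0.78 ± 0.15, and the sulfotransferase gene Sult2a8 by 1.11 ± 0.22 and 0.93 ± 0.22. Sult1e1, the oestrogen sulfotransferase, went the other way, with a PHx level of 4.17 ± 2.34 against 1.49 ± 0.27 after sham in fl/fl livers (SD, n = 4; limma adjusted p = 0.0357). Its PHx fl/fl arrays ran from 1.79 to 6.56, and the lowest lay within the sham range of 1.17 to 1.84. In Ppara△Hep livers Sult1e1 rose by 3.54 ± 0.92 (SE; limma adjusted p = 0.0086), and the groups did not overlap. Of 7 genes for steroid receptors and binding proteins 4 fell in each genotype, among them the glucocorticoid receptor gene Nr3c1 at -0.65 ± 0.11 and -0.73 ± 0.11 and the oestrogen receptor gene Esr1 at -0.40 ± 0.11 and -0.54 ± 0.11.

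**Figure D4:**
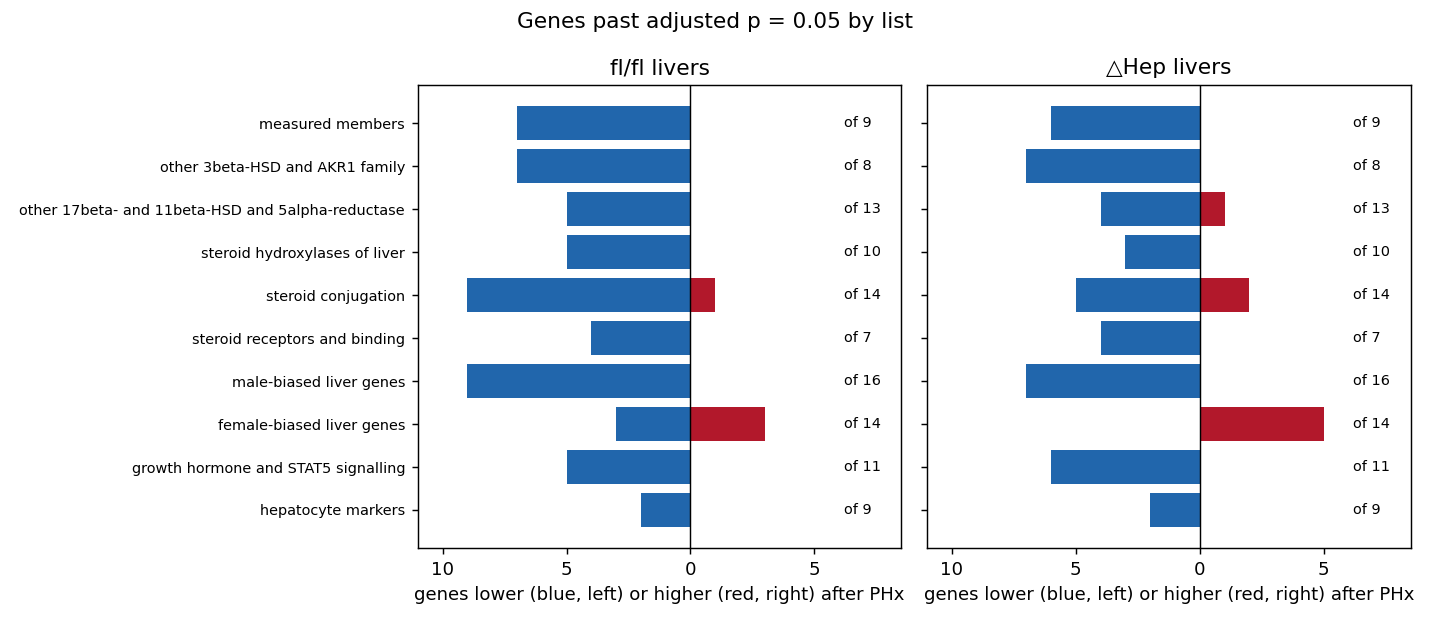
Number of genes that passed limma's test (adjusted p below 0.05) after PHx in 10 of the lists, lower to the left and higher to the right of 0, with the number measured beside each bar. Female-biased liver genes had 3 of each direction in fl/fl and 5 rises with 0 falls in Ppara△Hep livers, and the male-biased list had 9 and 7 falls with 0 rises.

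Growth hormone acts on the liver through STAT5 and keeps up the male pattern of many of these genes. Of 16 male-biased liver genes 9 fell in fl/fl and 7 in Ppara△Hep livers, and 0 rose in either. Keg1, a glycine acyltransferase-like gene, and Elovl3, a fatty acid elongase gene, led with -3.00 ± 0.44 and -2.28 ± 0.39 in fl/fl livers. The list was not uniform, since Cyp4a12a, a male-specific fatty acid hydroxylase gene, had 0.09 (adjusted p = 0.712) and Cyp2d9, a testosterone 16α-hydroxylase gene, had -0.04 (adjusted p = 0.775). Of 14 female-biased genes 3 rose and 3 fell in fl/fl, and 5 rose and 0 fell in Ppara△Hep livers. The rises in Ppara△Hep livers included Sult1e1 at 3.54 and Cyp2b10 at 1.3, but also Cyp2b9 and Cyp2b13 at 0.29 and 0.25. Of all genes 11.9% rose in fl/fl and 14.8% in Ppara△Hep livers. The mean of the 14 female-biased genes was low, 2.99 to 3.16 on sham Ppara△Hep arrays. The part of the background in the small rises was not tested. Of 11 genes of growth hormone signalling 5 fell in fl/fl and 6 in Ppara△Hep livers. Igfals had the largest called fall, at -2.20 ± 0.39 and -3.04 ± 0.39. Ghr, the growth hormone receptor gene, had -0.70 ± 0.18 and -0.75 ± 0.18, and Stat5b -0.61 ± 0.08 and -0.59 ± 0.08. Cish (-0.12 and -0.20) and Bcl6 (-0.56 and -0.24) of this list did not pass in either genotype. The part of growth hormone signalling in the members' falls was not tested. On all 16 arrays Xist stood at 1.35 to 1.65 and the Y-linked Eif2s3y at 4.8 to 5.39. Of 4 sex-linked genes 2 fell in fl/fl livers, while 3 fell and 1 rose in Ppara△Hep livers. That rise was of the dim Xist, by 0.20, and the part of the background in it was not tested.

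The start windows were searched on both strands for 4 motifs, in 10 windows of 8 members, the unmeasured Srd5a1 included, that the RefSeq table holds. Akr1c20 and Hsd17b2 have none in it. The STAT5 motif TTCNNNGAA was present in the window of Akr1c19 alone, as TTCCACGAA beginning 24 bases before the start, while 8.30% of all 32851 windows hold it. The glucocorticoid and androgen receptor hexamer TGTTCT was present in the Hsd3b2 window alone, on the other strand 246 bases before the start, against 19.0% of all windows. The C/EBP motif TTGCNNAAT, held by 2.40% of all windows, and the PPAR and HNF4 element known as DR1 in its strict form, held by 0.0396%, were found in 0 of the 10.

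Markers of the labelled tissue were high. Alb, the albumin gene, stood at 11.67 to 11.91 on all arrays, and the mean of 9 hepatocyte markers ran from 10.52 to 10.65 on sham and from 10.44 to 10.54 on PHx arrays, with 2 of 9 lower and 0 higher in each genotype. Fewer hepatocytes and less RNA per hepatocyte cannot be told apart in whole liver. The marker counts stand beside 20.8% of all genes lower in fl/fl and 17.5% in Ppara△Hep livers. Among genes with a mean of at least 3 these shares were 35.3% and 34.2%. A marker count near them is not a result about its cell type. Markers of sinusoidal endothelium fell in 5 of 9 with 1 rise in each genotype. Their mean ran from 5.38 to 5.54 on sham and from 4.95 to 5.32 on PHx arrays. Those of stellate cells fell in 4 of 8 in each genotype, and their mean ran from 4.61 to 4.91 on sham and from 4.09 to 4.45 on PHx arrays. Kupffer cell markers fell in 3 of 10 with 1 rise in fl/fl and in 6 of 10 in Ppara△Hep livers. The part of these cells in the members' falls was not tested. Of the adrenal and gonadal markers Star, Cyp11a1, Cyp11b1, Cyp11b2 and Mc2r stood at 2.51 or below on every array, Nr5a1 at 2.71 to 3.10, Cyp21a1 at 2.94 to 4.36 and Cyp17a1 at 4.48 to 8.29. Of 9 such genes 3 fell in fl/fl livers, while 2 fell and 2 rose in Ppara△Hep livers. The 2 rises were those of the dim genes Cyp11b1 and Cyp11b2, by 0.20 and 0.22. In fl/fl livers 1 of 5 cholangiocyte and 2 of 8 blood cell markers fell, in Ppara△Hep livers 0 of either list passed, and 0 of 7 adipocyte and pancreas markers passed in either genotype. Median levels over all probe sets were 2.02 to 2.08 on sham and 2.14 to 2.22 on PHx arrays.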

How the data were processed

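Total RNA of mouse liver was hybridised to 16 Affymetrix arrays, 1 per sample. The authors deposited log2 values, 1 for each probe set on each array. The submitters' processing notes name RMA, which removes background, equalises arrays and merges probes; its software is not stated in these sources. Of 72688 probe sets, 30604 carry 1 gene symbol, 2146 several and 39938 are unlisted. Symbols were updated through RefSeq (827 changed), and the probe set with the highest mean stood for a gene, leaving 30142 genes. Correlations between arrays across genes were 0.986 to 0.997 within groups. The number of arrays limits precision.

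With limma 3.58.1, group means were estimated jointly from the 16 arrays (lmFit, eBayes; R 4.3.3; 12 residual degrees of freedom), and p-values were adjusted by Benjamini-Hochberg over all genes. A gene was called at adjusted p below 0.05. The 6 comparisons set PHx beside sham per genotype, the genotypes after each operation and averaged, and the difference of the PHx changes. Alternatives were array medians subtracted, cyclic loess, genes with a mean of at least 3 only, trended and robust moderation, only the 2 groups compared, the mean of a gene's probe sets, and each array left out. The members, the 17 other lists and the rules were chosen with earlier results of these data known. Named genes were all members, up to 4 of each other list with the largest called change, and the nearest genes by profile (5 for Hsd3b5, 1 for the others). Genes of the Hsd3b and Akr1c families were also named. Cyp4a12a, Cyp2d9, Cish, Bcl6 and single marker genes such as Alb were named after their values were seen.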

Additional observations from a re-analysis of the deposited data

Results flagged for a closer look

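In sham fl/fl livers 3 members had array 1 far from the other 3 arrays of the group. The gap between array 1 and the nearest array, as a share of the group's whole range, was 0.944 for Akr1c14, 0.858 for Akr1c19 and 0.858 for Akr1c20, above Dixon's 95% critical value for 4 samples. In all, 36 groups of 4 values were examined (9 genes in 4 groups), and chance alone passes that value in about 1 in 20. The 3 genes share the array, so they are not separate signs. Array 1 was low in each case.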

How the results depend on the processing

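The count of members lower after PHx in fl/fl livers was 7 of 9 under every alternative run. In Ppara△Hep livers it was 6 as reported and ran from 5 to 7 with 1 array left out, at 8 with array medians subtracted and 5 after cyclic loess. The calls that moved there were those of Akr1c6, Akr1c19 and, with array medians subtracted, Hsd17b2. The cause was not tested. The genotype comparisons and the difference of PHx changes had 0 of 9 members called under every alternative run. With 1 array left out, the number of all genes called between the genotypes ran from 1 to 6 after sham (4 as reported), 14 to 127 after PHx (43) and 35 to 120 averaged (66), and the difference of PHx changes had 0 to 2 (0). Fitting only the 2 groups compared gave 38 after sham and 0 after PHx. No called change of a member turned its sign. Over all genes the share lower in fl/fl livers, 20.8%, became 10.8% after cyclic loess and 26% with array medians subtracted, and in Ppara△Hep livers 17.5% became 12.3% and 38.1%. Among genes with a mean of at least 3 these shares were 35.3% and 34.2%. Of the genes called, 36.5% were higher in fl/fl and 45.8% in Ppara△Hep livers, against 56.7% and 53.7% after cyclic loess and 28.0% and 16.5% with array medians subtracted. That last scaling moved the median change in Ppara△Hep livers from 0.01 to -0.12. No paired analysis was possible because the labels give no replicate number shared between groups.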
